A study of Mus musculus with 4 samples.

Results

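The genes described here are 2 Notch ligands, Dll4 and Jag1, and 2 Notch receptors, Notch1 and Notch2, 4 of the 22631 gene rows measured in migratory dendritic cells (DCs) of the mouse. They were chosen by name with their levels by population and capture already known, so their levels are a description and no level or ratio of theirs was tested. The cells came from lymph nodes draining the ears of Tnfsf4KI/+ mice, which carry a knock-in at Tnfsf4, the OX40L gene, so that cells using this gene also make blue fluorescent protein (BFP). OX40L is a surface ligand with which DCs stimulate T cells. Both treatments and both reporter classes therefore carried that allele.

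The ears were left untreated or received MC903 (calcipotriol, which resembles vitamin D and raises TSLP in keratinocytes) on days 0, 2 and 4, with harvest of the nodes on day 5. Sorting took 5000 cells with and 7000 cells without BFP per treatment, gated as B220-, CD11c-intermediate and MHC class II-high, which were marked with separate hashtag antibodies and loaded together. The groups are thus untreated BFP+, untreated BFP-, MC903 BFP+ and MC903 BFP- DCs, each a single pool of cells. The sources used here do not give the number, age or sex of the mice. The untreated and MC903 cells were separate captures sequenced on different lanes, so treatment, capture and lane cannot be told apart.

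Notch signalling passes between touching cells. A ligand of the Delta or Jagged family on one cell binds a Notch receptor on its neighbour, the protease ADAM10 and then the gamma-secretase complex cut the receptor, and its freed intracellular domain enters the nucleus, where it joins RBPJ and Mastermind proteins on target genes. DCs sit on both sides of this exchange: they present Delta-like and Jagged ligands to T cells, and Notch2 is known to be needed for subsets of conventional DCs in spleen and gut. Notch1 is best known for directing lymphoid progenitors to the T cell lineage.

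The position of each gene is given by GENCODE on GRCm38, the build named in the submitters' processing notes. Dll4 (ENSMUSG00000027314) lies on the plus strand at chr2:119325784-119335962. Jag1 (ENSMUSG00000027276) lies on the minus strand at chr2:137081456-137116644, and Notch1 (ENSMUSG00000026923) on the minus strand at chr2:26457903-26516663. Notch2 (ENSMUSG00000027878) lies on the plus strand at chr3:98013527-98150361. Gm14207 overlaps Dll4 on the opposite strand, 0610009E02Rik and Gm13568 overlap Notch1 on the opposite strand and Mir6996 on its own, and Gm42819 and Gm42820 overlap Notch2 on its own strand. The sources used here do not say whether counting used strand.

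The sequence upstream of the RefSeq start is shown for the ligand and the receptor that differed most between treatments. Both are plus-strand sequences of GRCm38.p6 from RefSeq, printed 5′ to 3′ and ending before the first base that GENCODE assigns to the gene. Capitals mark GC boxes (GGGCGG, or CCGCCC on the other strand), the core of sites that SP family factors bind in many promoters.

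Dll4, chr2:119325534-119325783: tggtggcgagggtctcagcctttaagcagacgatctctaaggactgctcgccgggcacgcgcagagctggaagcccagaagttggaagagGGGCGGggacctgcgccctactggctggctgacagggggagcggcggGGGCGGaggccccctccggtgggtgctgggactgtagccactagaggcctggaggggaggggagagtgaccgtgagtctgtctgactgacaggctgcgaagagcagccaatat
Notch2, chr3:98013288-98013526: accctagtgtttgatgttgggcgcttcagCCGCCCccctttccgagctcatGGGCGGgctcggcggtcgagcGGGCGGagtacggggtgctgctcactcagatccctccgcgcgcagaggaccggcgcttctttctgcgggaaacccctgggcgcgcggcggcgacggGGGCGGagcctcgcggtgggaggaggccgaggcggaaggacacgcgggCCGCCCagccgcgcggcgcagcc

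A GC box stood in 32.7% of 32851 RefSeq upstream windows of 250 bases. The Dll4 window held 2, those of Notch1 and Notch2 held 5 each, and that of Jag1 held 0. By GENCODE, all 250 bases of the Notch1 window and 124 of the Jag1 window lie inside those genes, since the RefSeq starts used differ from the gene ends given above. Jag1 alone had an E-box (CAGCTG), which stood in 13% of windows. Neither the RBPJ core TGGGAA (21.6% of windows), the STAT5 palindrome TTCNNNGAA (7.02%), the AP-1 site TGANTCA (6.75%) nor the TATA box TATAAA (12.4%) matched any of the 4 windows on either strand. The motifs do not overlap in these windows, and the GC box and E-box were added after the sequences were seen. No match says only that these letters are not in the window.

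Levels are given as counts per 1e6 UMIs (CPM): the UMIs (molecules counted) of a gene summed over the cells of a population and divided by all UMIs of those cells. Their 95% intervals, in parentheses, are exact Poisson intervals that cover counting error only, since each population is a single pool. The 3′ counts were not corrected for length, so levels were not compared between genes. In such sums, fewer cells that make a transcript and less of it per cell cannot be told apart, so the share of cells with a UMI is given too.

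After filtering, 8422 untreated and 5636 MC903 barcodes remained, with medians of 2622 and 9219 UMIs. A barcode was given to a population when it had at least 10 hashtag counts and at least 80% of them came from 1 hashtag. That left 25.2% of untreated and 3.02% of MC903 barcodes mixed, and these entered no population. Of the untreated barcodes, 593 were BFP+ and 5708 BFP-, although the sorted cells numbered 5000 and 7000. DCs were the barcodes with at least 50 per 10000 UMIs from 10 genes of migratory DCs, among them Ccr7, Fscn1 and Relb, and no excess of another lineage. They numbered 439 untreated BFP+ (median 5207 UMIs), 4116 untreated BFP- (2709), 1427 MC903 BFP+ (10197) and 3131 MC903 BFP- (9613). Among these DCs the BFP transcript was at 81.4 CPM in BFP+ against 7.20 in BFP- untreated DCs, and at 108 against 10.5 after MC903. The 1507 mixed untreated DCs, in neither class, were at 59.3 CPM from 274 UMIs, beside 244 UMIs in the untreated BFP+ DCs. Cells with reporter RNA were thus also among those left out. The captures shared 21 kept barcodes.

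Dll4 encodes a Delta-like ligand with high affinity for Notch1. It was highest in MC903 BFP+ DCs at 45.4 CPM (42.1 to 48.8), from 708 UMIs. MC903 BFP- DCs followed at 27.9 (26.1 to 29.8), untreated BFP+ DCs at 22.4 (17.3 to 28.4) and untreated BFP- DCs at 7.44 (6.18 to 8.89). The intervals of MC903 BFP- and untreated BFP+ DCs overlapped, and no others did.

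The ratio of BFP+ to BFP- DCs for Dll4 was 1.59 (1.13 to 2.03) on the log2 scale without treatment and 0.70 (0.56 to 0.85) following MC903. Of all genes with at least 20 CPM in the higher population, 3.21% were higher in BFP+ than in BFP- untreated DCs by at least 1.5-fold, and 1.3% were after MC903. Dll4 was among both sets. MC903 over untreated, Dll4 was higher by 1.02 (0.66 to 1.40) in BFP+ and by 1.91 (1.63 to 2.19) in BFP- DCs, where 3.38% and 4.72% of genes were higher by 1.5-fold. Within cells of 6000 to 14000 UMIs of both captures, a range set after seeing the values, these ratios were 0.34 (-0.09 to 0.81), no longer 1.5-fold, and 1.18 (0.75 to 1.64). The genes were chosen with these ratios known, so the percentages are a description beside them. Between the captures, the TMM scaling of edgeR shifted ratios by 0.10 in BFP+ and 0.11 in BFP- DCs. It changed the split of all genes in BFP+ DCs from 166 higher and 199 lower to 261 and 117, and in BFP- DCs from 236 and 246 to 362 and 176.

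**Figure D1:**
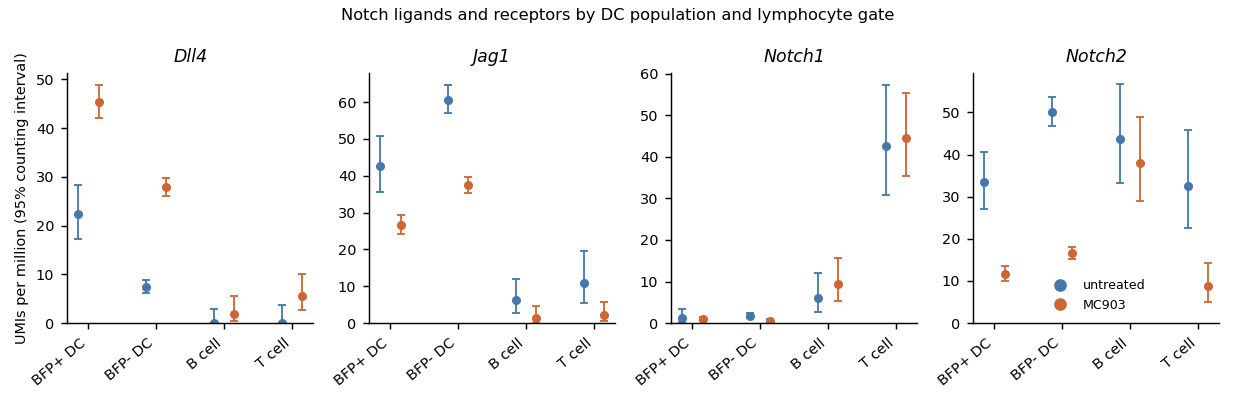
CPM (vertical axis) of the 4 genes in BFP+ and BFP- DCs and in barcodes gated as B cells or T cells, for the untreated (blue) and MC903 (orange) captures. Points are levels in summed cells and bars their 95% counting intervals. Dll4 is higher in the MC903 DCs, Jag1 and Notch2 lower, and Notch1 is near 0 in DCs and at 42.5 and 44.6 in T cells.

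Few DCs carried the Dll4 transcript, and some of them carried many copies. With every cell thinned to 2000 UMIs, 5.86% (4.70 to 7.21, exact Clopper-Pearson) of MC903 BFP+ DCs had a Dll4 UMI, against 3.71% (3.08 to 4.44) of MC903 BFP- DCs. The shares were 2.99% (1.55 to 5.16) in untreated BFP+ and 1.24% (0.902 to 1.67) in untreated BFP- DCs. Without thinning they were 15.6%, 9.61%, 3.64% and 1.75% in the same order. Thinning left out 11, 34, 37 and 661 shallower DCs, again in that order. In B cell gates the thinned share was 0 of 224 barcodes untreated, which allows up to 1.34% (3 counts of the total), and 0.543% after MC903. In untreated BFP+ DCs, 67 Dll4 UMIs lay in 16 of 439 cells, 9 of which held at least 3 and 1 of which held 18. The largest count in 1 cell was 24, in an MC903 BFP- DC.

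The Dll4 transcript was then followed by cluster. The clusters were made without the Notch pathway genes. Dll4 was nonetheless among the leading genes of cluster 13, behind Myl7 and Gprin2. Its level there was 109 CPM (101 to 117) after MC903 and 62.0 (48.3 to 78.3) untreated. Cluster 10, led by the fatty acid binding protein gene Fabp4 and by Dbn1, was at 52.3 (48.2 to 56.6) after MC903 and 7.16 (2.33 to 16.7) untreated, from 611 and 5 UMIs. Of the 197 MC903 DCs with at least 3 Dll4 UMIs, 95 lay in cluster 13 and 73 in cluster 10. Untreated, 10 of 20 such cells lay in cluster 13, 5 in cluster 9, 2 each in clusters 1 and 8, and 1 in cluster 10. The remaining DC clusters with at least 50 cells of each capture were between 2.40 and 18.5 CPM after MC903.

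The 4 populations held different amounts of those clusters. Cluster 13 made up 22.9% (20.8 to 25.2) of MC903 BFP+ and 8.88% (7.91 to 9.93) of MC903 BFP- DCs. In untreated cells it made up 14.4% (11.2 to 18.0) of BFP+ and 0.923% (0.654 to 1.27) of BFP- DCs. It held 62.9% of the Dll4 UMIs of MC903 BFP+ DCs and 71.6% of those of untreated BFP+ DCs. In BFP- DCs it held less, 33.6% after MC903, where cluster 10 held 43.1%, and 7.44% untreated, where the Langerhans-like cluster 9 held the most, 25.6%. Cluster 10 made up 28.4% of MC903 BFP+ and 16.2% of MC903 BFP- DCs, against 4.10% and 0.899% untreated. Of its 1011 cells, 943 were MC903 cells, as were 634 of 779 in cluster 13 and 676 of 779 in cluster 6. In such clusters capture, treatment and kind of cell cannot be told apart.

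Clusters 13 and 10 were left out in turn, a choice made after the values were seen. Without cluster 13 the Dll4 ratio of BFP+ to BFP- DCs was 0.22 (-0.57 to 0.93) untreated and 0.12 (-0.10 to 0.33) after MC903. MC903 over untreated without cluster 13 was 1.45 (0.78 to 2.21) in BFP+ and 1.55 (1.26 to 1.85) in BFP- DCs. Without clusters 10 and 13 it was 0.02 (-0.75 to 0.84) in BFP+ and 0.40 (0.06 to 0.75) in BFP- DCs. Of the 67 Dll4 UMIs of untreated BFP+ DCs, 71.6% lay in cluster 13 and 26.9% in cluster 1. In cluster 1 only 2 untreated DCs held at least 3 Dll4 UMIs. The ratios that use untreated BFP+ DCs without cluster 13 thus rest on few UMIs in few cells, which the counting intervals do not cover. Inside cluster 13, MC903 BFP+ cells were above BFP- cells by 0.29 (0.08 to 0.51), and inside cluster 10 the ratio was -0.59 (-0.84 to -0.34). The difference between these 2 ratios was not tested. Inside cluster 13, MC903 cells were above untreated cells by 0.81 (0.46 to 1.18), and inside cluster 10 by 2.87 (1.64 to 4.50), where the median depths were 11451 and 10004 UMIs. Over all barcodes of a cluster, Dll4 was higher after MC903 in 5 of the 8 DC clusters compared and lower in 3. The log2 ratios ran from -1.24 to 2.87, with the interval above 0 in 3 and below 0 in 0. Among BFP- cells it was higher in 2 of 4 clusters and lower in 2.

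**Figure D2:**
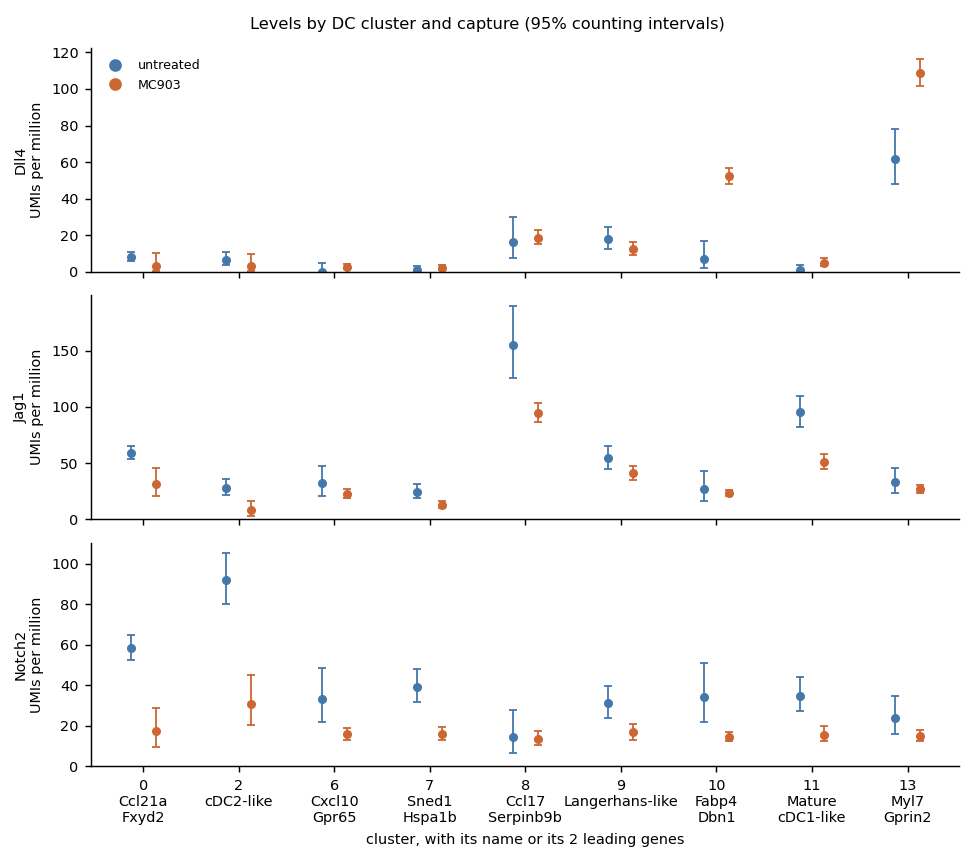
CPM (vertical axis) of Dll4, Jag1 and Notch2 in DC clusters with at least 50 cells of both captures (horizontal axis), untreated in blue and MC903 in orange, with 95% counting intervals. Dll4 is highest in cluster 13, and after MC903 next in cluster 10 (52.3, against 7.16 untreated). Jag1 is highest in clusters 8 and 11, and Notch2 is lower after MC903 in each cluster, least in cluster 8 (13.7 against 14.7).

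Dll4 was also read by marker-gated DC type. DCs of no type were at 37.5 CPM (35.7 to 39.4) after MC903 and 11.2 (9.70 to 12.8) untreated. Langerhans-type DCs (Epcam, Cd207 and further genes of epidermal DCs) were at 15.4 (9.63 to 23.3) and 15.7 (10.4 to 22.6), with overlapping intervals. These levels rest on few cells: 14 of the 22 MC903 UMIs and 12 of the 28 untreated UMIs lay in 1 cell each. DCs with genes of mature cross-presenting DCs (cDC1), a list drawn from earlier results of these cells, were at 11.1 (8.15 to 14.7) and 3.42 (1.48 to 6.75). B cell gates held 1.90 CPM after MC903, from 3 UMIs, and T cell gates 5.51 from 10 UMIs. Both were at 0 untreated.

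Thy1, a surface protein best known on T cells, was at 163 CPM in cluster 13 and 101 in cluster 10 after MC903. Among thinned MC903 BFP- DCs, 27.8% of cells with a Dll4 UMI had a Thy1 UMI, against 3.22% of the rest, and among MC903 BFP+ DCs 26.5% against 7.05%. The cells with both numbered 32 and 22, where the shares within each cluster multiply to 13.3 and 11.6 cells. Untreated, 2 of 12 BFP+ and 1 of 43 BFP- DCs with a Dll4 UMI had a Thy1 UMI. For Jag1 the shares were 5.22% and 6.71% in MC903 BFP- DCs. The 5 genes most like Dll4 over 21 sums of 12 DC clusters by capture were Myl7 (Pearson r = 0.889), Cacna1d (0.880), Uchl3 (0.870), Gprin2 (0.863) and Nrgn (0.819), ranked among 6616 genes. These sums share libraries and depth, so the correlations describe them only.

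Jag1 encodes a ligand of the Jagged family, which activates Notch2 among other receptors. Its order was the reverse of that of Dll4. Untreated BFP- DCs were highest at 60.7 CPM (57.0 to 64.6), followed by untreated BFP+ DCs at 42.7 (35.6 to 50.8), MC903 BFP- DCs at 37.5 (35.4 to 39.7) and MC903 BFP+ DCs at 26.7 (24.2 to 29.3). The 2 middle intervals overlapped.

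The log2 ratio of BFP+ to BFP- DCs for Jag1 was -0.51 (-0.78 to -0.24) untreated and -0.49 (-0.66 to -0.33) after MC903. Both ratios lay inside the 1.5-fold limit that 4.19% and 1.49% of genes passed downward. With HTODemux, another way to call hashtags, the untreated ratio was -0.09 (-0.30 to 0.12). MC903 over untreated, the Jag1 ratio was -0.68 (-0.97 to -0.38) in BFP+ and -0.70 (-0.82 to -0.57) in BFP- DCs, past the limit in both, where 4.05% and 4.92% of genes were lower. With TMM scaling both were -0.58, just inside it. Thinned shares of cells followed: 7.96% and 11.3% of untreated BFP+ and BFP- DCs had a Jag1 UMI, against 4.24% and 6.65% after MC903. Unthinned, the deeper MC903 cells gave 16.3% and 21.5%, against 17.3% in each untreated population. The thinned share in B cell gates was 2.23% untreated and 0 of 368 after MC903, which allows up to 0.815% (3 counts of the total).

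Jag1 was highest in cluster 8, led by the chemokine genes Ccl17 and Ccl22 and by Serpinb9b. It stood there at 156 CPM (126 to 190) untreated and 95 (86.8 to 104) after MC903. In that cluster 32.9% (22.3 to 44.9) of thinned untreated and 16.5% (13.1 to 20.5) of thinned MC903 cells had a Jag1 UMI, and 55.0% and 46.2% unthinned. Cluster 11, with the genes of mature cDC1, was next at 95.2 (82.2 to 110) and 51.1 (44.9 to 58.0). Of the DC clusters with at least 50 cells of both captures, the lowest after MC903 were 2, led by Cd209d and named cDC2-like from its markers, at 8.02 (3.23 to 16.5), and 7, led by Sned1, at 13 (10.3 to 16.3). Over all barcodes of a cluster, MC903 cells were below untreated cells in 9 of 9 such clusters, with log2 ratios from -1.78 to -0.24. The interval lay below 0 in 6 of them. By reporter class, BFP- cells were lower in 5 of 5 clusters that could be compared. BFP+ cells could be compared in clusters 7 and 13 only, where 1 ratio was lower and 1 higher (0.52), with both intervals reaching 0.

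The reporter ratio of Jag1 was also read within MC903 clusters, with no test of the difference between clusters. BFP+ over BFP- it was -0.65 (-1.24 to -0.10) in cluster 6 and -0.77 (-1.67 to 0.05) in cluster 7. In clusters 8, 10 and 13 the ratios were -0.18 (-0.49 to 0.12), 0.13 (-0.24 to 0.49) and -0.03 (-0.47 to 0.41). Cluster 12, led by salivary gland genes, had the lowest, -1.59 (-4.01 to 0.21). Cluster 11, high in Jag1, made up 0.841% of MC903 BFP+ and 13.2% of MC903 BFP- DCs. It made up 1.59% and 8.55% of the untreated populations. Among the genes most like Jag1 over the same 21 sums were Pvr (r = 0.847), Tnfaip2 (0.826), Idi1 (0.806) and Snn (0.793).

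Notch2, the receptor that conventional DCs are known for, was at 50.1 CPM (46.7 to 53.6) in untreated BFP- and 33.4 (27.2 to 40.6) in untreated BFP+ DCs. After MC903 it was at 16.5 (15.2 to 18.0) in BFP- and 11.7 (10.1 to 13.6) in BFP+ DCs. No 2 of these intervals overlapped. Mixed untreated DCs, in neither class, were at 67.3 (60.1 to 75.2). MC903 over untreated, the ratio was -1.51 (-1.87 to -1.14) in BFP+ and -1.60 (-1.76 to -1.44) in BFP- DCs, past 1.5-fold in both beside 4.05% and 4.92% of all genes. With HTODemux these ratios were -2.09 and -0.78. Thinned to 2000 UMIs, 10.7% and 11.5% of untreated BFP+ and BFP- DCs had a Notch2 UMI, against 2.82% and 3.52% after MC903. Unthinned, the shares were 19.8%, 17.2%, 11.4% and 14.6% in that order, and the thinned share in B cell gates was 9.38% untreated and 9.78% after MC903.

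Depth moved with this difference. In untreated DCs, Notch2 was at 71.0 CPM (65.8 to 76.6) in cells of 2000 to 4000 UMIs and at 18.4 (13.4 to 24.7) in cells of at least 14000. In MC903 DCs it was at 35.9 (23.3 to 53.1) and 13.4 (11.7 to 15.3) in the same ranges. Within cells of 6000 to 14000 UMIs, MC903 over untreated was -1.05 (-1.57 to -0.50) in BFP+ and -0.76 (-1.05 to -0.47) in BFP- DCs. That is a smaller ratio in the same direction. Dll4 moved the other way in MC903 DCs, from 8.63 (3.17 to 18.8) in cells of 2000 to 4000 UMIs to 54.2 (50.7 to 57.9) above 14000. The Jag1 treatment ratios within 6000 to 14000 UMIs were -1.02 (-1.44 to -0.58) in BFP+ and -0.57 (-0.78 to -0.37) in BFP- DCs.

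**Figure D3:**
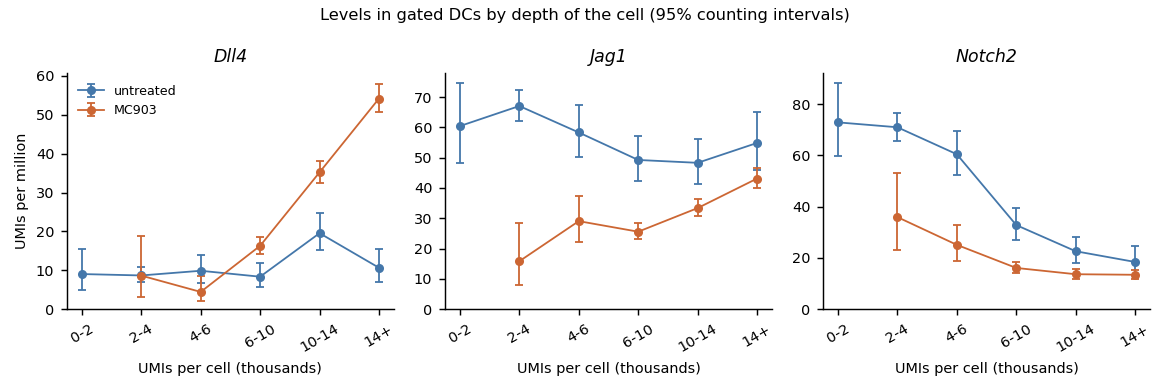
CPM (vertical axis) of Dll4, Jag1 and Notch2 in gated DCs by the number of UMIs in the cell (horizontal axis, in units of 1000), untreated in blue and MC903 in orange, with 95% counting intervals. Ranges with under 100 cells are left out. Notch2 is lower in deeper cells of both captures, and Dll4 is higher in deeper cells of the MC903 capture, up to 54.2. Jag1 in the MC903 capture is highest in the deepest cells, at 43.1.

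Over all barcodes of a cluster, Notch2 was lower after MC903 in 9 of 9 DC clusters, with log2 ratios from -1.74 to -0.10 and the interval below 0 in 7. The exceptions were cluster 8 at -0.10 (-1.11 to 1.08) and cluster 13 at -0.66, whose interval reached 0. By DC type it was highest in untreated cDC2-type DCs (Cd209a, Mgl2 and further genes) at 98.1 CPM (76.5 to 124), followed by less mature cDC1 at 82.5 (53.4 to 122), of 191 and 78 cells. Only 18 and 4 MC903 cells fell in those gates. Langerhans-type DCs were at 38.6 (30.01 to 48.8) untreated and 18.2 (11.9 to 26.6) after MC903, and mature cDC1 at 40.2 (32.5 to 49.2) and 16.1 (12.6 to 20.4). B cells, which need Notch2 to become marginal zone cells, were at 43.8 (33.2 to 56.7) and 38.0 (29.0 to 49.0), with overlapping intervals. T cell gates were at 32.6 (22.5 to 45.8) and 8.81 (5.04 to 14.3).

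Lymphocyte RNA in DCs was lower after MC903 too. It was also higher in untreated BFP- than in untreated BFP+ DCs, as Notch2 was. After MC903, Notch2 was higher in BFP- DCs and the marker sums were not. The part of lymphocyte RNA in the Notch2 ratios was not tested. The 7 B cell markers summed to 69.8 CPM in untreated BFP- DCs, 26.4 in untreated BFP+ DCs, 17.1 in MC903 BFP+ DCs and 13.7 in MC903 BFP- DCs. The 8 T cell markers summed to 104, 54.7, 19.4 and 19.3, and every marker of both lists was detected in each population. The genes most like Notch2 over the 21 sums were Cd79a (r = 0.922) and Cd3g (0.905), ahead of Rpgrip1 (0.885), Cbx3 (0.883) and Traf3ip3 (0.883). Cd79a and Cd3g encode signalling chains of the B cell and T cell receptor complexes. Without every DC that held a UMI of the B or T cell markers, the treatment ratio of Notch2 was -1.70 (-2.13 to -1.26) in BFP+ and -1.42 (-1.62 to -1.23) in BFP- DCs. A deeper cell is likelier to hold such a UMI, so this choice of cells also changes depth. It cannot separate lymphocyte RNA from depth. Untreated barcodes set aside because they carried both DC and B cell markers were at 83.8 CPM (68.9 to 101).

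The untreated reporter ratio of Notch2 differed with the depth of the cells compared and with how they were labelled. Untreated BFP+ over BFP- it was -0.59 (-0.90 to -0.28), just past the limit of 1.5-fold that 4.19% of genes passed. It was -0.11 with thinned cells, -0.12 within 6000 to 14000 UMIs and 0.90 (0.64 to 1.17) with HTODemux, which called 1816 untreated DCs BFP+ and 742 BFP-. After MC903 the ratio was -0.50 (-0.75 to -0.25), at under 20 CPM in both populations.

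Notch1 was near the floor of these DCs. It had 4 UMIs in untreated BFP+ DCs, or 1.33 CPM (0.364 to 3.42), and 28 in untreated BFP- DCs, or 1.72 (1.14 to 2.49). After MC903 it had 15 UMIs in BFP+ DCs, or 0.961 CPM (0.538 to 1.59), and 20 in BFP- DCs, or 0.628 (0.384 to 0.970). All these intervals overlapped but those of the 2 BFP- populations. T cell gates were at 42.5 (30.8 to 57.2) untreated and 44.6 (35.4 to 55.4) after MC903. B cell gates were at 6.14 (2.65 to 12.1) and 9.51 (5.32 to 15.7). Thinned, between 0.194% and 0.434% of DCs had a Notch1 UMI, against 9.24% and 6.88% of T cells, so DC values this low cannot be told from free RNA. In no population did it reach 20 CPM, and its ratios were not read. Its most similar genes over the 21 sums, Creld2, Uap1l1, Set, Stmn1 and Pclaf, were ranked from levels near 0.

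**Figure D4:**
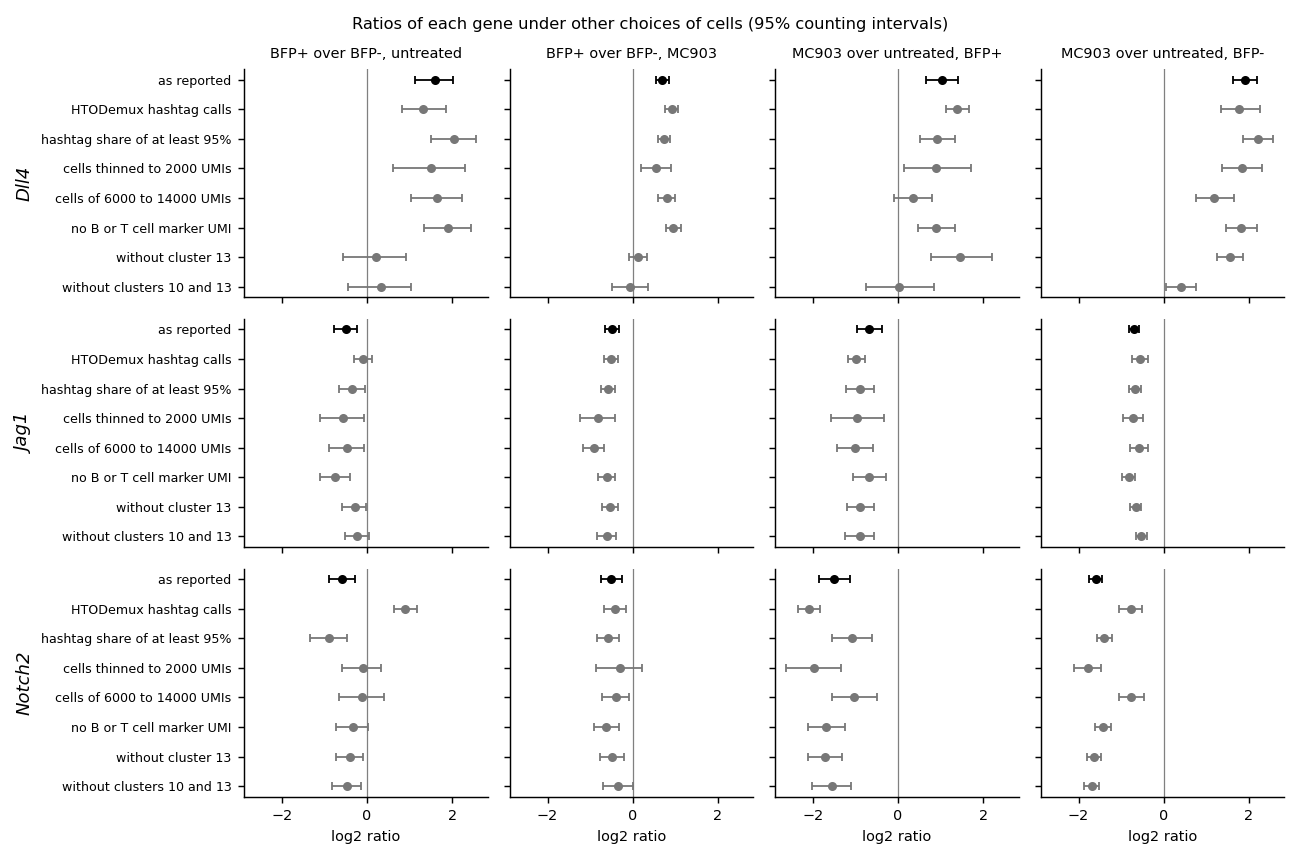
Log2 ratios (horizontal axis) of Dll4, Jag1 and Notch2 in the 4 comparisons (columns) as reported (black) and under other choices of cells (grey), with 95% counting intervals. Without cluster 13 the Dll4 reporter ratios are 0.22 (untreated, from few UMIs in BFP+ DCs) and 0.12 (MC903). The untreated Notch2 reporter ratio is 0.90 with HTODemux.

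The rest of the pathway was described from 64 genes in 9 lists, the 4 genes included. Of the remaining ligands, Dll1, Dll3 and Jag2 had at most 0.667, 0.0628 and 1.97 CPM in any DC population. The receptors Notch3 and Notch4 had at most 0.0641 and 0.431. Dll4 and Jag1 were thus the ligands, and Notch2 the receptor, that passed 20 CPM.

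Among the 60 others, 24 were measured at 20 CPM or more between treatments. MC903 over untreated, 1 was higher and 1 lower by 1.5-fold in BFP+ DCs, and 1 was higher and 5 lower in BFP- DCs. Over all genes, 3.38% were higher and 4.05% lower in BFP+ DCs, and 4.72% and 4.92% in BFP- DCs. Their median ratios were -0.19 and -0.24, beside -0.04 and -0.03 over all genes. Between reporter classes 0 were higher and 4 of 23 lower in untreated DCs, beside 3.21% and 4.19% of all genes. After MC903 none of 23 passed in either direction, beside 1.3% and 1.49%.

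Of the enzymes that put sugars on the receptor and tune its choice of ligand, the fringe gene Lfng was at 41.3 CPM in untreated BFP- and 28.4 in MC903 BFP- DCs. Pofut1, which adds the first fucose, was at 13.1 and 19.6 in the same populations, and Poglut1, which adds glucose, at 205 and 221. None of these 3 passed 1.5-fold in any comparison. Of the proteases, Adam10 had treatment ratios of -0.69 in BFP+ and -0.83 in BFP- DCs, where it was at 64.8 untreated and 36.4 after MC903. Furin, which cuts the receptor on its way to the surface, had a ratio of -0.83 in BFP- DCs. The gamma-secretase gene Psen2 had a ratio of -0.79, BFP+ over BFP-, in untreated DCs, at 20.7 and 35.7 CPM. Untreated T cell gates held 66.2 and B cell gates 33.8, and the part of lymphocyte RNA in this ratio was not tested. Psenen, another subunit, was between 120.3 and 132 CPM in all 4 populations, and Adam17 between 32.0 and 44.7.

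Of the genes that act on ligand and receptor turnover, Neurl3 had a treatment ratio of -1.43 in BFP- DCs, at 30.7 CPM untreated and 11.4 after MC903. Lymphocyte gates held more Neurl3, at 105 CPM in B cells and 219 in T cells untreated, and 176 and 113 after MC903. The part of lymphocyte RNA in its ratio was not tested. Mib1, the ubiquitin ligase that lets ligands signal, was at 33.8 in untreated BFP- and 23.9 in MC903 BFP- DCs. Dtx3, Itch and Epn1 passed 1.5-fold in no comparison. In the nuclear complex, Rbpj was at 96.4 CPM in untreated BFP+, 126 in untreated BFP-, 76.1 in MC903 BFP+ and 102 in MC903 BFP- DCs. Neither Rbpj nor Snw1, Kdm5a or Spen passed 1.5-fold.

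Hes1 and Dtx1 are named here after their values were seen. Among target genes only Hes6, a factor that opposes Hes1, passed 20 CPM in DCs, at between 21.7 and 28.8. Hes1, a direct target in many tissues, was at 2.15 CPM or less in every DC population. It was at 34.2 in MC903 B cell gates. Dtx1, a target known in lymphocytes, was at 3.34 or less in DCs, and at 121 in T cell and 73.5 in B cell gates after MC903.

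Of 6 genes known to depend on Notch2 in conventional DCs, Esam, an adhesion protein that marks such cells in spleen, was higher after MC903 by 1.28 in BFP+ and 0.92 in BFP- DCs. It was at 18.8 CPM in untreated BFP- and 35.4 in MC903 BFP- DCs. Esam is also an endothelial gene, and the 7 endothelial markers, Esam among them, summed to 29.1 and 38.5 CPM in those populations, most of it from Esam itself. Of the 7 markers, 6 were detected in untreated BFP- and 5 in MC903 BFP- DCs. Tie1 was at 0 in both, and Cdh5 at 0 in MC903 BFP- DCs. The part of endothelial RNA in the Esam ratios was not tested. Cd8a and the lymphotoxin gene Ltb had treatment ratios of -1.41 and -1.20 in BFP- DCs, and of -0.36 and -0.33, inside 1.5-fold, in BFP+ DCs. Lymphocytes also make both, and the T cell markers were lower after MC903 in both reporter classes, as given above for Notch2. Their part in these ratios was not tested.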

How the data were processed

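The authors deposited counts: UMIs of each gene and of each hashtag in every barcode, from 10x 3′ libraries. Per the file headers they come from Cell Ranger 3.1.0, and per the submitters' processing notes from GRCm38 (mm10). The 4 genes and all lists were chosen with earlier results of these data known; the mature cDC1 list was taken from those results.

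A barcode needed 500 or more genes, and no more than 10% of its UMIs could be mitochondrial. DCs had at least 50 per 10000 UMIs from the migratory list and were left out where another lineage reached 10 per 10000 with 2 markers; DC types needed 5 per 10000 and 2 markers. Hashtag doublets were left out as mixed, and no doublet caller was run. Counts were summed per population. Intervals are exact (Poisson, binomial, and conditional binomial for ratios; scipy 1.17.1, Python 3.11.15), at 95%. Clusters came from scanpy 1.11.5 (Leiden 0.8, 30 components, 15 neighbours, 1913 genes without the pathway). A gene was called at 1.5-fold and at least 20 CPM in the higher population. Likeness used log2(CPM + 10). Pathway genes were named at 20 CPM or more, up to 5 a list by largest ratio. Some genes that this rule or the likeness ranking names are not reported here. Alternatives used HTODemux (Seurat 5.3.0, R 4.3.3) and TMM (edgeR 4.0.16). The scripts were tested on simulated data. With 1 pool a population, no test was made.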

Additional observations from a re-analysis of the deposited data

Results flagged for a closer look

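Dll4 was also found in cluster 14, a neutrophil-like cluster that is not among the DC clusters compared, although 60% of its cells passed the DC gate and so count in the populations. Its level there was 46.3 CPM untreated and 127 after MC903, from 22 UMIs in 139 cells and 31 UMIs in 21 cells. Among the MC903 DCs of that cluster, 3 held at least 3 Dll4 UMIs, so the MC903 level may rest on few cells. B cell gates were at 0 and 1.90 CPM. The cause was not tested.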

How the results depend on the processing

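Each log2 ratio was recomputed under 12 alternatives, 7 planned and 5 added after seeing the data (a hashtag share of at least 95%, cells of 6000 to 14000 UMIs, and leaving out cluster 12, cluster 13, or clusters 10 and 13). The direction held in 47 of 48 values for Dll4, 48 of 48 for Jag1, 47 of 48 for Notch2 and 40 of 44 for Notch1. Values outside the counting interval of the reported ratio follow, and the cause was not tested. With HTODemux, the ratio of BFP+ to BFP- DCs was 0.92 for Dll4 after MC903, -0.090 for Jag1 untreated and 0.90, a reversal, for Notch2 untreated; treatment ratios were -0.98 (BFP+) and -0.56 (BFP-) for Jag1 and -2.09 and -0.78 for Notch2. With thinned cells the reporter ratios were 0.55 for Dll4 and -0.82 for Jag1 after MC903 and -0.11 for Notch2 untreated, and the Notch2 treatment ratios were -1.98 and -1.78. Without cells that held B or T cell marker UMIs, the Dll4 reporter ratio after MC903 was 0.96, and the BFP- treatment ratios were -0.82 for Jag1 and -1.42 for Notch2. At a hashtag share of at least 95%, Dll4 was at 2.03 (reporter, untreated) and 2.22 (treatment, BFP-), and the Notch2 treatment ratios were -1.09 and -1.40. Within 6000 to 14000 UMIs the treatment ratios were 0.34 and 1.18 for Dll4, -1.02 (BFP+) for Jag1 and -1.05 and -0.76 for Notch2, and the reporter ratios were -0.92 for Jag1 after MC903 and -0.12 for Notch2 untreated. Without cluster 13, Dll4 was at 0.22 and 0.12 (reporter, untreated and MC903) and 1.45 and 1.55 (treatment, BFP+ and BFP-). Without clusters 10 and 13 these were 0.33, -0.059 (a reversal), 0.016 and 0.40, and Jag1 was at -0.23 (reporter, untreated) and -0.53 (treatment, BFP-). Without a minimum CPM, the genes past 1.5-fold numbered 1801 higher and 1925 lower (reporter, untreated), 1309 and 1393 (reporter, MC903), 995 and 2636 (treatment, BFP+) and 1060 and 3352 (treatment, BFP-); TMM gave 261 and 117 in BFP+ DCs and 362 higher in BFP- DCs. No paired analysis was possible because each population is 1 pool, and for the same reason no replicate could be left out. Depth limits Notch1 (at most 28 UMIs a population) and the untreated BFP+ pool of 439 DCs.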
